A study of Mus musculus with 7 samples.

Results

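T and B lymphocyte genes, a set of 36 mouse genes that mark T cells (18 genes), B cells (8 genes) or leukocytes in general (10 genes), were followed over the 7 arrays of cultured mammary glands. The set was proposed with the results of these same arrays in view, so it counts as chosen by their measured levels, and the height of its members on the αERKO array is a description and carries no test. A member was taken from each gene probe whose RefSeq accession maps to its symbol. Of 13971 genes named in this way, 32 were members. No probe is named for Cd5, Cd8a, Cd28 and Cd69, which were not analysed here. Levels are given as log2 of a probe's intensity over the median intensity of the gene probes on its array, so that 0 is the median probe. The scanner software's call of each spot says whether it was good or near background.

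The study compared mammary glands of mice lacking estrogen receptor α (αERKO), mice lacking estrogen receptor β (βERKO) and wild-type (WT) C57 mice in whole organ culture. Glands came from 4-week-old females, and after 10 days in growth-promoting hormones and 14 days in insulin alone the 24-day cultures ended. DMBA, a polycyclic hydrocarbon that causes mammary tumours in rodents, was given at 2 µg/ml for 24 h on day 3 to the glands of the 3 main groups according to the methods, although among the array titles only that of 1 WT array names its use. RNA of 5 mice per group was pooled for each of these 3 arrays. The other arrays held WT glands after 10 days without DMBA, WT glands after 24 days without DMBA, BALB/c glands after 24 days, and BALB/c glands after 24 days with vitamin D5, for which the titles give neither a dose nor the use of DMBA. Before culture the mice were pretreated in vivo. The methods give 1 µg estrogen with 1 mg progesterone for 9 days for organ culture in general, and the results text gives 25 ng EGF with 1 mg progesterone for 5 days for the glands put on arrays. Both knockouts are deletions in the whole animal, on a C57BL6/129SV background that the WT mice do not share exactly, and each array holds whole gland, with ducts, fat, vessels and any leukocytes that stayed in the explant. The methods also state that no αERKO material was available for molecular analysis, while an array titled ESR1 KO was deposited and is used here under that title.

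T cells recognise antigen through a receptor that signals by way of the CD3 chains, and they are divided into helper and cytotoxic cells by the co-receptors CD4 and CD8. B cells recognise antigen through a surface immunoglobulin that signals by way of CD79A and CD79B. Lymphocytes are a minor population of the mammary stroma and are concentrated in the lymph nodes that lie in and beside the mammary fat pads. In whole-tissue RNA, fewer cells of a type and less RNA per cell cannot be told apart.

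The targeted genes were examined first. The Esr1 probe was near background on the αERKO array at -3.76, and also at -1.72 on the array labelled βERKO, -9.45 on the 10-day WT array, -3.96 on the 24-day WT array without DMBA and -2.74 on the BALB/c array. It was good only on the WT array with DMBA, at -1.02, and on the vitamin D5 array of BALB/c glands, at -0.74. The Esr2 probe was good at 0.87, its highest level, on the array labelled βERKO and good at -0.55 on that of 24-day WT glands without DMBA, and it was near background on the remaining 5. The Esr2 value goes against its label, so that array is called the array labelled βERKO throughout, and every direction drawn against it rests on the label. Whether the Esr2 probe lies within the deleted part was not tested.

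Each group had 1 array, so no difference given here has a replicate check and no p-value was computed. The 7 arrays had a median intensity of gene probes between 39.1 and 53.0 and a median local background between 80 and 83. Between 68.4% and 74.2% of the 34967 gene probes were called good. The αERKO array had both the lowest median intensity and the lowest share good. As a gauge of precision within a pair of arrays, the log2 differences of different probes for the same gene, where both probes were measured, had a pair SD between 0.23 and 0.61 over the 7 comparisons, with the largest value for αERKO against WT with DMBA.

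On the αERKO array 31 of the 32 measured members were good, Cd3e being the exception. The counts were 23 on the array labelled βERKO, 22 on the WT array with DMBA, 23 on the 10-day WT array, 21 on the 24-day WT array without DMBA, 18 on the BALB/c array and 20 with vitamin D5. Of all gene probes, 68.4% were good on the αERKO array and between 70.3% and 74.2% on the others. The αERKO array was the highest of the 7 for 22 members, and the share of all gene probes highest there was not computed. Counts over 2-fold in this report use values as read, and are given again where holding spots near background at their bound (the dimmest good value of the array) changes them. As read, 16 members lay over 2-fold above each of the other 6 arrays on αERKO, made up of 8 of 15 T cell, 2 of 8 B cell and 6 of 9 pan-leukocyte genes. Held at the bound there were 15, without Ccr7. Over all gene probes good on at least 1 array, 4.63% did so as read, and the share at the bound was not computed. Since the members were chosen with these values known, nothing is read from that difference or from the counts of good and of highest members. Of the rest, 5 members were good on all arrays and varied by less than 1 on the log2 scale, Cd3e was near background on all arrays, and 10 followed other patterns. Shares of all gene probes with these patterns were not computed. At the edge of the 2-fold limit, Ccr7 lay 1.05 above the next array on the log2 scale and Tcf7 lay 0.94 above it.

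**Figure D1:**
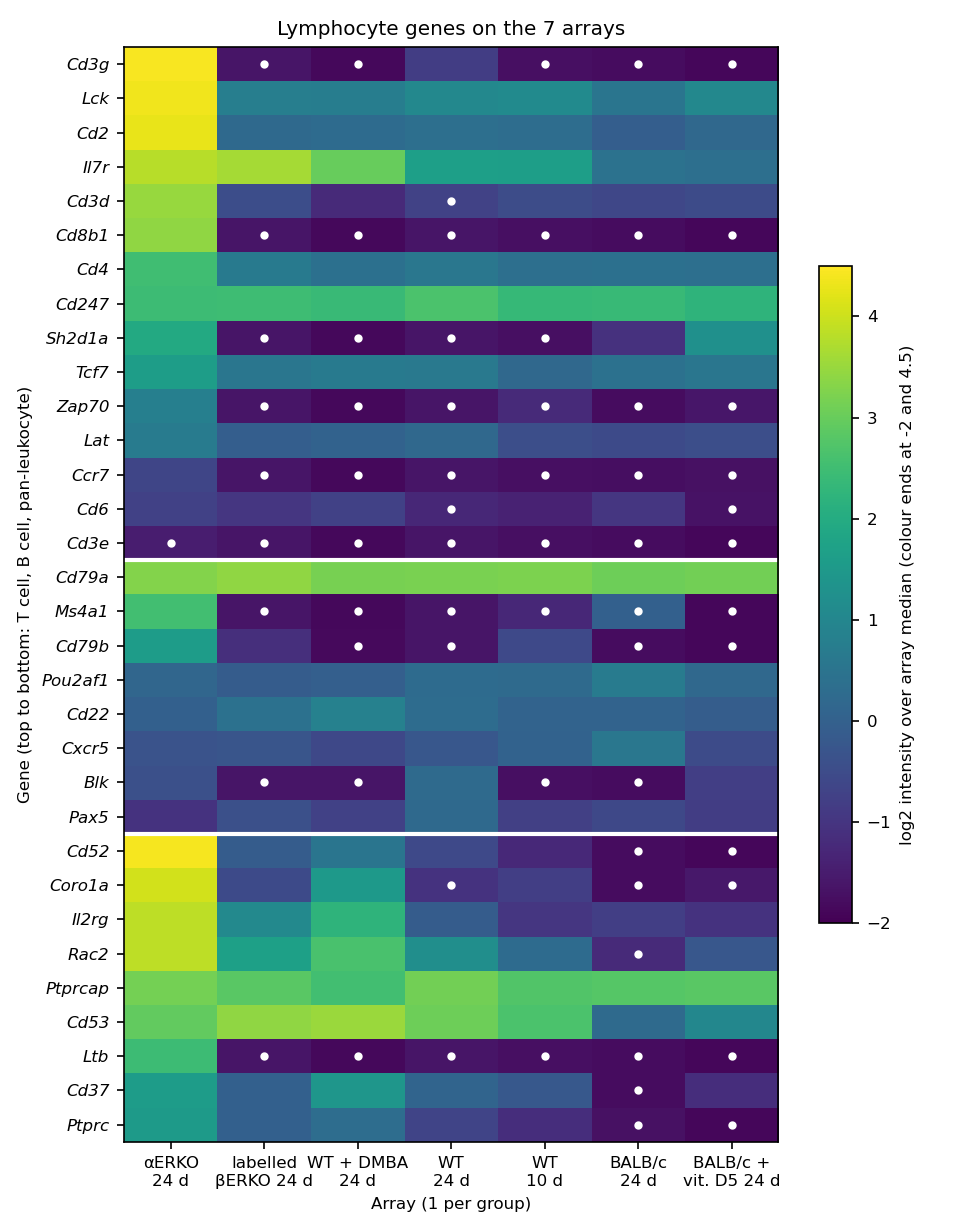
Level of the 32 measured lymphocyte genes (vertical) on the 7 arrays (horizontal), as log2 intensity over the array median, with T cell, B cell and pan-leukocyte genes divided by white lines. White dots mark spots not called good, drawn no lower than the dimmest good value of their array. On the αERKO array 31 of 32 genes were good, against 18 to 23 on the others. Of all gene probes, 68.4% were good on αERKO and 70.3% to 74.2% on the others.

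Among the chains of the T cell receptor complex, Cd3g and Cd3d were far above the other arrays in αERKO glands, while Cd247 was level and Cd3e was not above background. Cd3g, the γ chain of CD3, was at 4.43 on the αERKO array, -0.82 on the 24-day WT array without DMBA, and near background at -2.57 on the array labelled βERKO, -2.78 on the WT array with DMBA, -1.95 on the 10-day WT array, -2.66 on the BALB/c array and -2.53 on that with vitamin D5. In deposited intensity these 2 good spots were at 843 and 25.5 units, and the αERKO level was 38.0-fold above the other. Cd3d, the δ chain, was at 3.49 on the αERKO array and between -1.23 and -0.45 on the other 6, a 15.4-fold gap to the nearest of them. Cd247, the ζ chain, which is the main signalling chain of the complex, was good on all 7 arrays at 2.45 in αERKO and between 2.22 and 2.65 elsewhere, so the αERKO value lay inside the range of the others. Cd3e, the ε chain, was near background on all 7 arrays, from -5.35 to -2.48, and its probe therefore gives no order of the arrays.

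The genes of CD3γ and CD3δ are neighbours transcribed away from each other, with RefSeq start sites 1355 bases apart, and the start of Cd3e lies 27825 bases from that of Cd3d. The sequences around their starts are shown because these 3 neighbouring genes gave such different readings, and those of Lck and Ltb because these members also stood far above the other arrays. Other members with a larger αERKO margin than Lck, such as Cd8b1 and Cd52, are not shown. Each runs 5′ to 3′ on the gene's own strand over 300 bases around the start, from RefSeq on GRCm38.p6. Capitals mark AGGAAG, a core of binding sites of ETS family factors, and TGTGGT, a core of RUNX sites, or their reverse complements, searched on both strands. The 5 windows are chr9:44980382-44980681 on the minus strand for Cd3g, chr9:44981536-44981835 on the plus strand for Cd3d, chr9:45009562-45009861 on the minus strand for Cd3e, chr4:129573592-129573891 on the minus strand for the upstream start of Lck, and chr17:35194257-35194556 on the plus strand for Ltb.
Cd3g: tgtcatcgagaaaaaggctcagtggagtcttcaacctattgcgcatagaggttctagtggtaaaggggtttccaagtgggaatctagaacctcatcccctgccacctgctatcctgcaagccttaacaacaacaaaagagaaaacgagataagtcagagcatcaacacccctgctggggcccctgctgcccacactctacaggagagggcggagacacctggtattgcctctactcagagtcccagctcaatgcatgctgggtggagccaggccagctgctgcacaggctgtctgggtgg
Cd3d: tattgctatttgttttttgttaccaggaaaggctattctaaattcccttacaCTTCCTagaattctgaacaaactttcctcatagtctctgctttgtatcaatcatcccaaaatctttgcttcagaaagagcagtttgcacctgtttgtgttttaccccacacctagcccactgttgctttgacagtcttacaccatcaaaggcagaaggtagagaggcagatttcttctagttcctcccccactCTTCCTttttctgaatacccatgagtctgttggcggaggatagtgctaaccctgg
Cd3e: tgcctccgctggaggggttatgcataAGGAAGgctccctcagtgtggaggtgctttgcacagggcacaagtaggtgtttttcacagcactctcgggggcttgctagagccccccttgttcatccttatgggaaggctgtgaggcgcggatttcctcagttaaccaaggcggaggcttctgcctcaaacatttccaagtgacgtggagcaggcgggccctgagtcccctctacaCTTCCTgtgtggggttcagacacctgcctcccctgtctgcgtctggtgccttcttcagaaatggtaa
Lck: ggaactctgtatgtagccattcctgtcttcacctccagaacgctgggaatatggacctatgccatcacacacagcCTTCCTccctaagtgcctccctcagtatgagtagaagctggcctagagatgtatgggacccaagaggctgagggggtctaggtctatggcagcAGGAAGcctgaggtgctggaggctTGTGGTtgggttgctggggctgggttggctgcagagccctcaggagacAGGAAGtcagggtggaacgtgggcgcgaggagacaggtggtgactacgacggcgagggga
Ltb: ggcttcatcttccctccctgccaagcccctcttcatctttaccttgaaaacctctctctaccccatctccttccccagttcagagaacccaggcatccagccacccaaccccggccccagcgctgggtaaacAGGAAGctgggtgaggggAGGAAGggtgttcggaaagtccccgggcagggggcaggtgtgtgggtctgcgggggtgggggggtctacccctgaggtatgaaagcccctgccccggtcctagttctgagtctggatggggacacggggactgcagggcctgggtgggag
The window of Cd3g held neither motif, and those of Cd3d, Cd3e and Ltb held 2 ETS cores each. The window of the upstream start of Lck held 3 ETS cores and 1 RUNX core. That of its downstream start, which is not shown, held 1 ETS core and no RUNX core. RefSeq gave 27 such windows for 21 members, of which 18 held AGGAAG and 6 held TGTGGT, whereas 35.4% and 16.8% of all 32851 windows did. These matches describe letters in a window only. Whether they bear on the level of any gene was not tested, and the Cd3e probe, near background on all arrays, gives no level to set beside them.

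The co-receptors and the adhesion molecule CD2 were also highest in αERKO glands. Cd4, the helper co-receptor, was good on all arrays, at 2.50 on the αERKO array and between 0.37 and 0.64 on the others, a gap of 3.62-fold. Cd8b1, the β chain of the cytotoxic co-receptor, was at 3.42 on the αERKO array and near background on the other 6, which makes it at least 32.8-fold higher than on any of them. Both co-receptors thus stood apart on the same array, with no overlap with the other 6.
Cd2, an adhesion receptor of T and NK cells, was at 4.29 in αERKO glands, 0.22 on the array labelled βERKO, 0.26 with DMBA and 0.36 without it on the 24-day WT arrays, 0.32 on the 10-day WT array, and -0.07 and 0.18 on the BALB/c arrays without and with vitamin D5. Those 6 values spanned less than 1 log2 unit, and the αERKO value was 15.1-fold above the highest of them. Cd6, another receptor of the T cell surface, did not share this height, with -0.75 on the αERKO array and -0.74 on the WT array with DMBA.

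The kinases and adaptors that pass on the signal of the T cell receptor differed among themselves. Lck, the kinase bound to CD4 and CD8, was good on all arrays, at 4.37 on the αERKO array and between 0.52 and 1.11 on the others, a 9.53-fold gap. Zap70, the kinase recruited to the phosphorylated CD3 and ζ chains, was at 0.80 on the αERKO array and near background on the others, and so at least 4.06-fold higher there. Lat, the membrane scaffold that ZAP70 phosphorylates, was at 0.71 on the αERKO array against -0.55 to 0.18, only 1.44-fold above the next array.
Sh2d1a, the SAP adaptor of T and NK cells, was at 1.95 on the αERKO array but also good at 1.27 on the BALB/c array with vitamin D5 and -1.08 on the BALB/c array, so its αERKO margin was 1.60-fold.

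Among T cell regulators, Tcf7, the transcription factor TCF1 of naive and memory T cells, was at 1.61 on the αERKO array and between 0.21 and 0.67 on the others, a 1.92-fold gap. Ccr7, the receptor that guides naive T cells into lymph nodes, was good on the αERKO array alone, at -0.65, at least 1.96-fold above the others. Il7r, the receptor for the survival cytokine IL-7, had a different order, with the array labelled βERKO next to αERKO and the BALB/c arrays last.
Its brighter probe was at 3.80 in αERKO glands, 3.62 on the array labelled βERKO, 2.98 on the WT array with DMBA, 1.66 and 1.64 on the WT arrays at 24 and 10 days without DMBA, and 0.46 and 0.37 on the BALB/c arrays without and with vitamin D5. The other Il7r probe was at 1.37 on the αERKO array and 1.501 on that labelled βERKO, so the 2 probes put different arrays first. Both had the BALB/c arrays lowest, the other probe at -0.35 and -0.82.

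**Figure D2:**
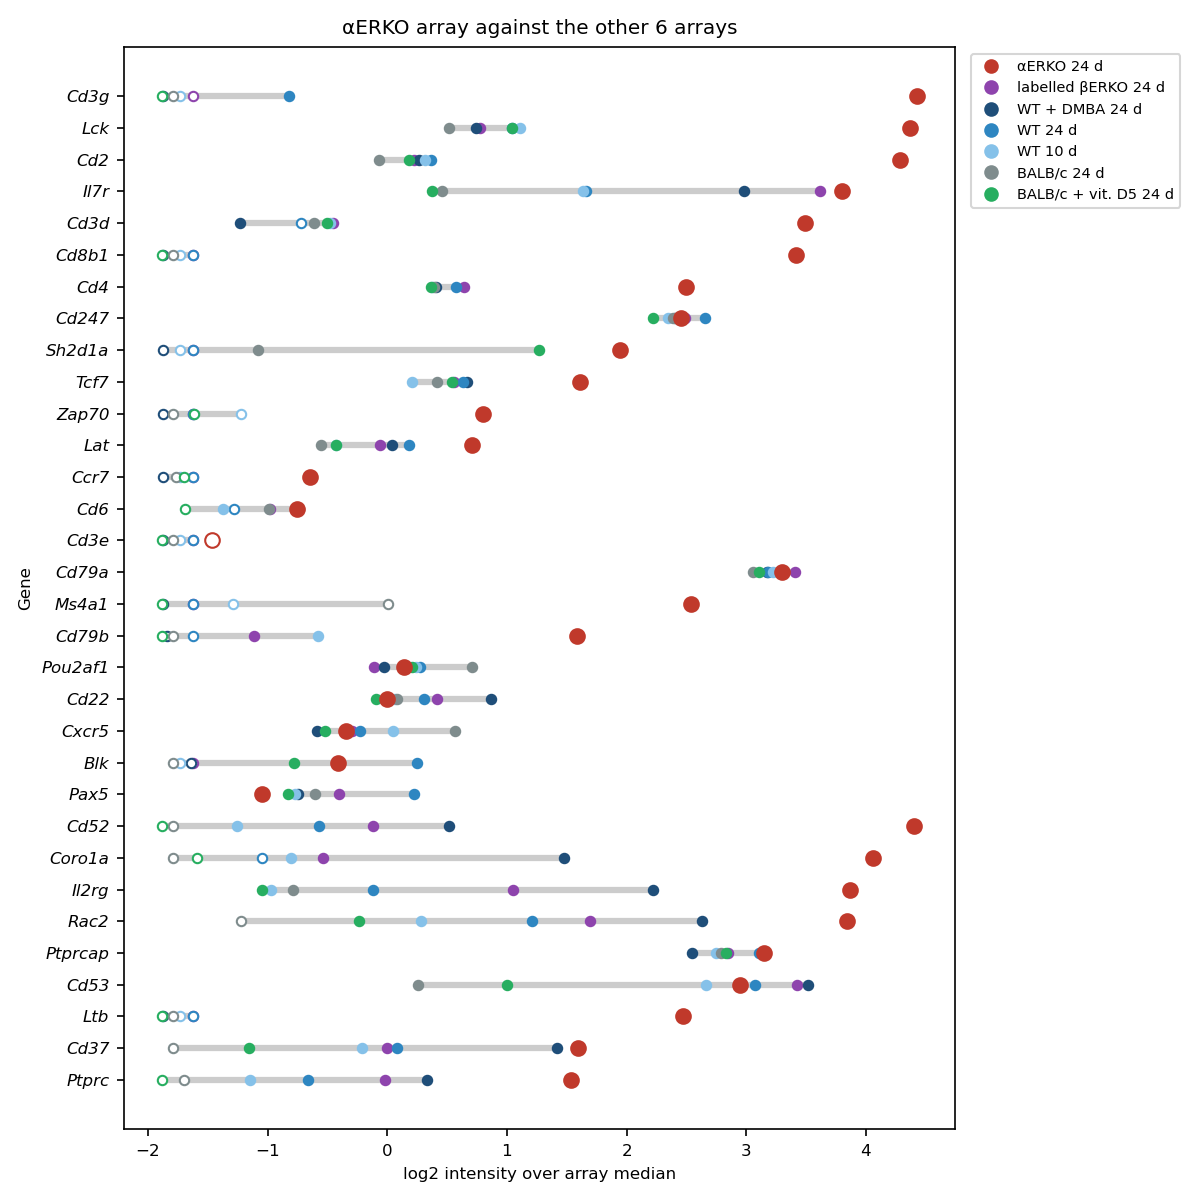
Level of each measured lymphocyte gene as log2 intensity over the array median (horizontal), with 1 point per array, filled where the spot was good and open where it was not, open points being drawn no lower than the dimmest good value of their array. Grey bars span the 6 arrays other than αERKO, and the large red αERKO point lies clear of the bar for Cd3g, Cd3d, Cd2, Cd8b1, Lck, Cd52 and Ltb but inside it for Cd247, Cd79a, Pou2af1 and Cd22.

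Of the 8 B cell genes 2 were high on the αERKO array, 3 were level everywhere and 3 did neither. Ms4a1, which encodes CD20, was at 2.54 on the αERKO array, near background on 5 arrays, and called irregular at 0.00 on the BALB/c array, so that it was at least 5.81-fold higher in αERKO glands. Cd79b, a signalling chain of the B cell receptor, was at 1.58 on the αERKO array, -0.58 on the 10-day WT array and -1.12 on the array labelled βERKO, and it was near background on the other 4, from -2.33 to -1.68. Its αERKO level was 4.46-fold above the 10-day WT level. Its partner Cd79a was good on all 7 arrays between 3.05 and 3.41, highest on the array labelled βERKO, with αERKO at 3.30. Before scaling by the array median, the αERKO spot, at 385.5 units, was the lowest of the 7, the highest being 464. The αERKO array also had the lowest median intensity, 39.1.
Cd22, an inhibitory receptor of B cells, was good on all arrays between -0.09 and 0.87, with αERKO at 0.00 and the highest value on the WT array with DMBA. Pou2af1, a B cell transcriptional coactivator, lay between -0.11 and 0.71, with αERKO at 0.14. These levels did not set αERKO glands apart.

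The remaining B cell genes were not highest on the αERKO array. Pax5, the transcription factor that fixes B cell identity, was good on all arrays and lowest on the αERKO array, at -1.05, against -0.83 to 0.23 elsewhere. Blk, a B cell kinase of the SRC family, was good at -0.41 on the αERKO array, 0.25 on the 24-day WT array without DMBA and -0.78 on the BALB/c array with vitamin D5, and near background on the rest. Cxcr5, the receptor that guides B cells to follicles, was at -0.34 on the αERKO array and between -0.59 and 0.57 on the others, highest on the BALB/c array.

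Several pan-leukocyte members also varied widely among the other 6 arrays. Cd52, a surface glycoprotein of mature lymphocytes, was at 4.40 in αERKO glands, 0.51 on the WT array with DMBA, -0.12 on the array labelled βERKO, -0.57 at 24 days and -1.26 at 10 days on the WT arrays without DMBA, and near background at -2.06 and -3.84 on the BALB/c arrays without and with vitamin D5. Coro1a, an actin-binding protein of leukocytes, was at 4.06, 1.48, -0.54, -1.05, -0.81, -2.13 and -1.59 on the same arrays in the same order, of which the last 2 and the 24-day WT array without DMBA were near background. For both genes the WT array with DMBA came next after αERKO, 14.8-fold lower for Cd52 and 5.98-fold lower for Coro1a.
Il2rg, the receptor chain shared by IL-2, IL-7 and related cytokines, was at 3.86 on the αERKO array, 2.22 on the WT array with DMBA and 1.05 on the array labelled βERKO, and between -1.05 and -0.12 on the other 4. Rac2, a GTPase of blood cells, was at 3.85, 2.63 and 1.69 on those 3 arrays. Ptprc, which encodes CD45, was at 1.54, 0.33 and -0.02 on them and was near background on both BALB/c arrays.
The αERKO margins over the next array were 3.12-fold for Il2rg, 2.33-fold for Rac2 and 2.30-fold for Ptprc. Ltb, the lymphotoxin β chain made by lymphocytes, was at 2.47 on the αERKO array and near background on the other 6, at least 17.0-fold higher. Cd37, a tetraspanin of B cells and other leukocytes, was at 1.59 on the αERKO array and 1.42 on the WT array with DMBA, a margin of 1.13-fold.
Cd53, another leukocyte tetraspanin, was higher on the WT array with DMBA (3.52), the array labelled βERKO (3.42) and the 24-day WT array without DMBA (3.07) than on the αERKO array (2.95), and lowest on the BALB/c arrays at 0.26 and 1.00. Ptprcap, a CD45-associated protein, was good on all arrays and lay between 2.54 and 3.15, with αERKO highest by 1.03-fold.

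Summed over its measured members, the T cell level, in units of the array median, was 120 on the αERKO array and between 14.9 and 26.95 on the others. The B cell sum was 22.8 against 12.9 to 15.3, where only Ms4a1 and Cd79b of its 8 genes were over 2-fold above every other array on αERKO. The pan-leukocyte sum was 94.8 against 10.4 to 36.5, with 36.5 on the WT array with DMBA and 10.4 on the BALB/c array.

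Further lymphocyte genes outside the set were read from lists written from their known roles, but with earlier results of these data known. Nothing is therefore read from the counts of these lists. Over all gene probes good on at least 1 array, 4.63% lay over 2-fold above every other array on αERKO. The share below every other array was not computed. Of 23 other T cell genes with a probe, 8 were over 2-fold above every other array on the αERKO array, among them Thy1, a T cell surface glycoprotein, at 2.56 against at most 0.08, and Prkcq, the kinase PKCθ of T cell receptor signalling, at 2.11 against at most -0.95. In the same list Bcl11b, a T lineage transcription factor, was over 2-fold below every other array, near background on αERKO and between 0.23 and 2.25 elsewhere. Trat1, with the widest range in that list, was near background on αERKO. Of 18 cytotoxic and NK genes 9 were above as read and 8 at the bound, including Nkg7, a granule protein, at 2.09 and Klrd1, the receptor chain CD94, at 1.41. As read, Gzmm, a granzyme, was below all others, near background on αERKO and on the array labelled βERKO. The summed level of the list was 51.8 on the αERKO array and between 4.6 and 9.1 on the others.
Of 19 other B cell genes 7 were over 2-fold above every other array on αERKO, among them Spib, a transcription factor of the ETS family, at 1.91. As read, 2 were over 2-fold below every other array, Pik3ap1 and Plcg2, and at the bound only Plcg2. Pik3ap1, the gene of widest range in this list, was near background on αERKO and good on only 2 arrays. The summed level of that list was 66.6 on the αERKO array and 78.6 to 126.4 on the others, but 1 gene decides that order. Plcg2, a phospholipase also found outside B cells, was at 3.92 on αERKO against 5.74 to 6.72, and without it the sum was 51.5 on αERKO and 18.0 to 46.4 on the others. The plasma cell list had 2 of 8, Jchain, the joining chain of secreted IgA and IgM, at 3.76, and Mzb1, a chaperone of antibody secretion, at 2.64. Prdm1 of the same list was lowest on αERKO, at -0.07 against 0.44 to 1.07. The summed level of the plasma cell list was 69.9 on αERKO, inside the 47.1 to 104.8 of the other arrays. The immature lymphocyte list had 1 of 6, Cd1d1, which other cells also express. Its member Dntt, the terminal transferase of V(D)J joining, was near background on the αERKO array. Vpreb1 of the same list was good on all arrays and lowest on αERKO, at -0.27 against 0.07 to 2.16.

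Some of the other marker lists were also high on the αERKO array, and others were not. All 8 MHC class II genes lay over 2-fold above every other array, with H2-Aa at 6.61 against at most 2.08 and the invariant chain gene Cd74 at 5.12 against at most 0.87, and their summed level was 245 against 5.2 to 16.1. Lymphoid stroma and homing genes had 6 of 14 above and 2 over 2-fold below every other array, with Ccl19, a ligand of CCR7, at 6.09 against at most 0.62 and Glycam1, a ligand of L-selectin on lymph node vessels that milk-producing epithelium also makes, at 6.17 against at most 1.63. The 2 below were Pdpn, a stromal glycoprotein, at 2.43 against 4.40 to 5.66, and Cxcr4, the CXCL12 receptor, at 2.23 against 3.50 to 5.63. Tnfsf11, the gene of widest range in this list, was at 5.32 on the WT array with DMBA and 2.45 on the 24-day WT array without it. It was at 1.37 on αERKO and no higher than -1.38 on the others. All 6 skeletal muscle genes lay over 2-fold above every other array, with Tnnc2, fast troponin C, at 8.61 against at most -0.12, and their sum was 1673 against 6.4 to 46.7.
Of 3 erythroid genes 2 did so, with Hba-a1, an α-globin gene, at 9.17 against at most 5.18, and a sum of 582 against 3.3 to 37.5. No mammary epithelial gene of 8 was above and 4 were over 2-fold below every other array, Krt14, a basal keratin, being at 2.77 against 5.19 to 8.0, and good on all 7 arrays, and their sum was 310 against 548 to 1437. Of 7 dendritic cell genes 2 were above, 1 of 12 macrophage genes, 1 of 9 neutrophil genes, 1 of 5 endothelial genes, 1 of 5 fibroblast genes, and none of 7 mast cell, 4 adipocyte or 3 lymphatic endothelial genes. Over 2-fold below every other array lay 1 macrophage gene and, as read, 2 neutrophil genes (1 at the bound). The share of all gene probes above was the 4.63% already given, as read. The share below was not computed, so nothing is read from the counts below. The part of these other tissues in the lymphocyte values was not tested.

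**Figure D3:**
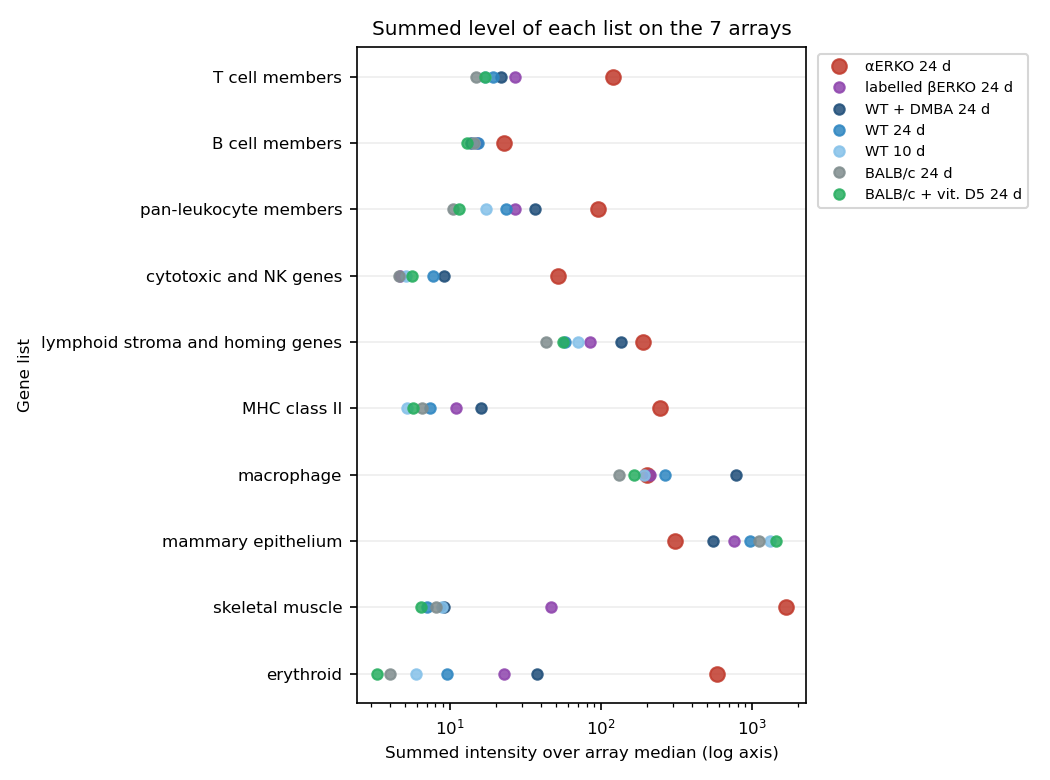
Summed intensity over the array median for 10 gene lists (vertical) on a log axis (horizontal), with 1 point per array. The αERKO array, in large red points, is highest for the T cell, B cell, pan-leukocyte, cytotoxic, lymphoid stroma, MHC class II, muscle and erythroid sums and lowest for the epithelial sum, while the macrophage sum is highest on the WT array with DMBA.

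The study's own question was how glands without each receptor differ from WT glands carrying DMBA-induced lesions. In αERKO against WT with DMBA, 18 of 31 members good on at least 1 of the arrays were over 2-fold higher, where over all gene probes measured in the same way 11.7% were, and no member was over 2-fold lower, against 14.1%. These were 9 T cell, 3 B cell and 6 pan-leukocyte genes. Sh2d1a was at least 14.1-fold and Blk at least 2.34-fold higher here, beside the 16 already described, of which Cd3g was at least 79.0-fold and Cd3d 26.3-fold higher. With spots near background held at their bound, the median log2 difference over members good on at least 1 of the arrays was 2.38 for 14 T cell, 0.21 for 8 B cell and 1.22 for 9 pan-leukocyte genes, and -0.06 over all gene probes. The T cell median was 1.23 after normexp background correction, which shrinks the differences of dim spots. The choice of members used this contrast, so nothing is read from these counts. Macrophage markers ran the other way in this pair, with 10 of 12 over 2-fold lower in αERKO and 1 higher. Their summed level was 777 on the WT array with DMBA, 202 on the αERKO array and between 130 and 266 on the others.

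On the array labelled βERKO against the WT array with DMBA, the T cell and B cell medians lay near that of all gene probes, and the pan-leukocyte median lay lower. Of 23 members measured none was over 2-fold higher, against 6.96% of all probes, and 3 were over 2-fold lower, against 8.37%. The 3 were pan-leukocyte genes, Coro1a by 4.04-fold, Cd37 by 2.68-fold and Il2rg by 2.25-fold. Nothing is read from counts of so few members, and those near background on both arrays were not counted. At the bound, the median log2 difference was 0.03 for 9 T cell, 0.27 for 6 B cell and -0.78 for 8 pan-leukocyte genes, beside 0.09 over all gene probes. On the same pair of arrays 8 of 12 macrophage genes and, at the bound, 2 of 9 measured cytotoxic and NK genes (Gzmb and Ccl5) were over 2-fold lower on the array labelled βERKO, and their part in the lower pan-leukocyte values was not tested. At the bound 1396 of 27469 gene probes were over 2-fold lower in this pair.

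Setting αERKO against the array labelled βERKO, 20 of 31 members measured were over 2-fold higher (19 at the bound, without Ccr7), against 13.5% of all probes, and none lower, against 16.6%. These shares are as read, and at the bound 2954 of 27026 gene probes were over 2-fold higher and 3592 lower. The 3 comparisons draw on the same 3 arrays, so their values stand side by side rather than adding to each other. Tcf7 at 2.07-fold and Cd37 at 3.03-fold joined the genes counted there. Coro1a was 24.2-fold, Cd52 22.9-fold and Cd2 16.7-fold higher, all good on both arrays. With spots near background at their bound, the median log2 difference was 2.14 for 14 T cell, 0.10 for 8 B cell and 2.15 for 9 pan-leukocyte genes, and -0.17 over all gene probes. Under normexp the T cell median was 1.13. Of 12 macrophage genes 5 were over 2-fold higher on αERKO in this pair and 2 lower.

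**Figure D4:**
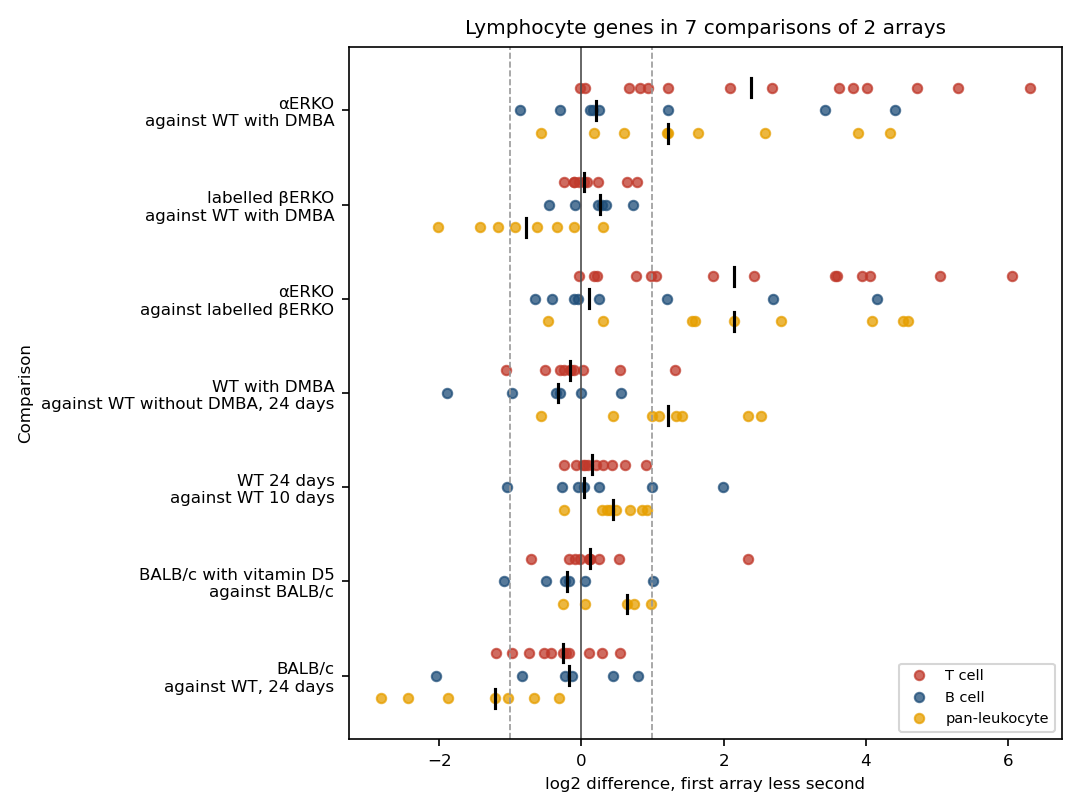
Log2 difference of each lymphocyte gene good on at least 1 array of a pair (horizontal), for 7 pairs of arrays (vertical), coloured as T cell, B cell or pan-leukocyte, with black ticks at the group medians and dashed lines at 2-fold. Spots near background are drawn no lower than the dimmest good value of their array, which shortens differences such as that of Ms4a1, and points beyond 3 appear only in the 2 pairs that include αERKO.

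The remaining 4 comparisons did not include either knockout, and 3 of them share the 24-day WT array without DMBA. For WT glands with against without DMBA at 24 days, 6 of 24 members measured were over 2-fold higher, against 10.1% of all probes, and 2 lower, against 8.46%. Of the 6, Il2rg was at 2.22 with DMBA and -0.12 without it (5.07-fold), and Coro1a was at 1.48 with DMBA and near background without it (at least 5.76-fold). Smaller differences were seen for Rac2 (2.63 and 1.21, 2.68-fold), Cd37 (1.42 and 0.08, 2.53-fold), Il7r (2.98 and 1.66, a log2 difference of 1.32) and Cd52 (0.51 and -0.57, 2.13-fold).
Apart from Il7r these are pan-leukocyte genes, and the T cell genes Cd2, Cd4, Cd3d, Lck and Cd247 did not exceed 2-fold. Cd3g and Blk were good without DMBA and near background with it, at least 2.08-fold and 3.71-fold lower. The median log2 difference at the bound was 1.21 for 8 pan-leukocyte (0.67 under normexp), -0.16 for 10 T cell and -0.33 for 6 B cell genes, against -0.13 over all gene probes. Between these arrays 11 of 12 macrophage genes were also over 2-fold higher with DMBA, such as C1qa at 7.30 against 4.48, and so were all 5 fibroblast and all 4 measured endothelial genes. What part these cells had in the pan-leukocyte values was not tested.

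From 10 to 24 days of WT culture without DMBA, 2 of 25 members measured were over 2-fold higher as read (1 at the bound), against 6.05% of all probes, and 1 was lower, against 6.34%. All 3 were near background on 1 of the arrays. These shares are as read, and at the bound 927 of 27173 gene probes were over 2-fold higher and 1064 lower. Cd3g was good only at 24 days (at least 1.89-fold), Blk likewise (at least 3.96-fold), and Cd79b only at 10 days (at least 2.06-fold). At the bound, 8 pan-leukocyte genes had a median log2 difference of 0.44, 10 T cell genes 0.15 and 7 B cell genes 0.03, beside 0.09 over all gene probes.

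With vitamin D5 in BALB/c glands, 2 of 21 members measured were over 2-fold higher, against 5.12% of all probes, and 1 was lower, against 7.06%. Sh2d1a was at 1.27 with vitamin D5 and -1.08 without it, 5.09-fold higher and good on both arrays. Blk was at least 2.02-fold higher and Cxcr5 was 2.13-fold lower. Median log2 differences at the bound were 0.12 for 10 T cell, -0.20 for 6 B cell and 0.64 for 5 pan-leukocyte genes (0.16 under normexp), against 0.09 over all gene probes. Since both arrays read Cd3g, Cd8b1, Zap70 and Ltb as near background, no difference in these genes could be measured.

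BALB/c glands against WT C57 glands at 24 days gave, as read, 1 of 24 members measured over 2-fold higher, against 9.17% of all probes, and 8 lower, against 9.33%. At the bound no member was higher and 7 were lower, where 1620 and 2078 of 28069 gene probes were. Strain cannot be told apart here from an unstated use of DMBA in the BALB/c culture. The 7 were Cd53 (3.07 to 0.26, 7.02-fold), Rac2 (at least 5.39-fold), Blk (at least 4.13-fold), Cd37 (at least 3.68-fold), Cd52 (at least 2.33-fold), Il7r (2.30-fold) and Ptprc (at least 2.05-fold). The members lost at the bound were Cd3g, at least 1.97-fold lower, and Sh2d1a, at least 1.46-fold higher.
At the bound, 7 pan-leukocyte genes had a median log2 difference of -1.22 (-0.43 under normexp), 11 T cell genes -0.26 and 6 B cell genes -0.18, against -0.15 over all gene probes. Macrophage genes were over 2-fold lower for 8 of 12 at the bound on the same pair, and their part in the values of Cd53, Cd52 or Ptprc was not tested. Cd2, Cd4, Lck and Cd247 were good on both arrays and stayed within 2-fold.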

How the data were processed

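Levels were read from the scanner files of 7 CodeLink Mouse Whole Genome arrays, 1 per group. The intensity deposited by the authors is, for each spot, the mean signal after subtraction of its local background, and the CodeLink software's quality call stands beside it. Each of the 34967 gene probes was scaled by the array median, following the methods, and put on the log2 scale after values not above 0 had been set to the smallest positive value of their array (Python 3.11.15, pandas 2.3.3, numpy 2.4.6). RefSeq's mouse gene table (GRCm38.p6) matched 14763 of 15553 probes with a RefSeq accession. A gene is given by its probe with the highest mean log2 value.

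All members with a probe are named, with up to 3 genes of widest range from other lists, and up to 2 per list of cell type markers. Bcl11b, Gzmm, Gzmb, Ccl5, Plcg2, Prdm1, Pdpn and Cxcr4 fall outside this rule and were chosen after their values were seen. Members and lists were chosen with earlier results of these data known. Members over 2-fold were counted among those good on at least 1 array of a pair. A spot near background gives a bound, written "at least", computed against the higher of the array's lowest good value and its own. With 1 array per group no test was possible, and the number of arrays limits the precision. Alternatives were quantile and 75th percentile scaling, the deposited normalized intensity, normexp background correction in limma 3.58.1 (offset 50, R 4.3.3), a floor at the lowest good value, other filters on dim spots, thresholds of 3-fold and 1.5-fold, and the mean of all probes of a gene. Counting was tested on simulated data. The deposited series table was not used, since its entries match no probe name. The scan times in the file headers follow each other closely, so they define no batches to compare.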

Additional observations from a re-analysis of the deposited data

How the results depend on the processing

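No paired analysis was possible because each group has 1 array. Medians in this paragraph start from values as read of members good on at least 1 array of a pair. Of 168 alternative medians 156 stayed close to the first value, as did 50 of 70 alternative counts and 11 of 14 alternative counts of good spots. The count of members over 2-fold above every other array on αERKO, 16 as read, ranged from 12 with normexp to 18 over 10 alternatives that were all chosen after seeing the data, and was 16 without the array labelled βERKO and 17 without the BALB/c arrays. Restricting αERKO against WT with DMBA to members good on both arrays left 9 over 2-fold in place of 18 and a T cell median of 0.94 in place of 2.97, and with normexp that median was 1.23. Against the array labelled βERKO, the same restriction for αERKO left 12 of 20 and a T cell median of 1.05 in place of 3.33, with 1.13 under normexp and 2.14 under a floor at the lowest good value. For the array labelled βERKO against WT with DMBA the 3 members became 1 under normexp, 7 with members near background on both arrays kept, 1 at 3-fold and 8 at 1.5-fold. The 8 members of WT with against without DMBA became 4 under normexp, 5 when good on both arrays and 4 at 3-fold, and the pan-leukocyte median of 1.21 became 0.67 under normexp. The 3 members of WT at 24 against 10 days became 0 under normexp and 0 when good on both arrays, so none of them is measured on both sides, and 8 with all members, 1 at 3-fold and 8 at 1.5-fold. For vitamin D5 in BALB/c the 3 members became 1 under normexp, 7 with all members and 7 at 1.5-fold, and the pan-leukocyte median of 0.66 became 0.16 under normexp, 0.047 when good on both arrays and 0.047 with all members. For BALB/c against WT the 9 members became 2 under normexp, 2 when good on both arrays and 5 at 3-fold, and the pan-leukocyte median of -1.49 became -0.43 under normexp, -0.67 when good on both arrays and -1.08 with all members. Requiring a spot mean over 1.5 times its local background left 15 members on the array labelled βERKO, 13 on the 10-day WT array and 13 on the BALB/c array with vitamin D5. Scaling to the 75th percentile moved the median of all probes, αERKO less another array, by between -0.07 and 0.18. The restriction to spots good on both arrays drops by construction members near background on one side, normexp with its offset shrinks differences of dim spots, and the cause of the other changes was not tested. Dim spots limit these data: no direction is measured between spots that are both near background, and no difference here has a replicate.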
